A study of Mus musculus with 12 samples.

Results

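Left ventricles (LVs) of double transgenic (DTG) mice and of single transgenic (TG) mice were compared after 1 week of isoproterenol (ISO), a β-adrenergic agonist, on 1-color arrays whose probes read both mRNAs and long noncoding RNAs (lncRNAs). Every mouse was on the C57BL/6J background and bore GRK-beta1AR, a cardiac-specific transgene for a β1-adrenergic receptor (β1AR) that has lost the sites where G protein-coupled receptor kinases (GRKs) phosphorylate it, so that receptor was present in the hearts of every group. DTG mice carried in addition a miR-150 transgene under the CAG promoter, which is active in most cell types and not in the heart alone. The question was which transcripts differ between LVs with and without extra miR-150 while the heart is under catecholamine stress. It rests on 6 of the 12 arrays of the series, DTG ISO 1 to 3 and TG ISO 1 to 3, and the other 6 arrays, 3 DTG vehicle and 3 TG vehicle, shared the estimate of the spread. The labelled ages were 10, 11 and 12 weeks for DTG ISO 1 to 3 and 9, 10 and 10 weeks for TG ISO 1 to 3, and each of these groups held 1 sample labelled female, DTG ISO 3 and TG ISO 1. The vehicle samples were labelled 10, 10 and 10 weeks in DTG vehicle and 9, 9 and 12 weeks in TG vehicle, with 1 female in each group. The labels do not say that each sample was a separate mouse, so the p-values measure the spread between samples. Of 60930 probes, 45155 gave signal well above background on 3 or more of the 12 arrays, whatever the group, and these were compared. Values are log2 signal relative to the 75th percentile of the same array, so that 0 is the level of a rather bright probe, and levels of different probes are not compared with each other.

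β1AR is the main receptor for catecholamines in cardiomyocytes. After GRKs phosphorylate an activated receptor, β-arrestin binds it, ends its coupling to the G protein and starts signals of its own. MiR-150 is a microRNA that is abundant in lymphocytes and present in cardiomyocytes, and like other microRNAs it lowers the output of mRNAs that pair with its seed, the bases near its 5′ end. It arises from a hairpin that gives a 5p and a 3p strand. The 3p strand, at chr7:45121798-45121819 (+) of GRCm38.p6 in RefSeq, is shown because the extra transgene sets the groups apart, with its seed (bases 2 to 8) in capitals. The seed of the 5p strand, mmu-miR-150-5p, is another one and is not shown here.
mmu-miR-150-3p: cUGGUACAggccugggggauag
The level of miR-150 itself was not analysed here. Long intergenic noncoding RNAs (lincRNAs) are transcribed between protein-coding genes, are often present in few copies per cell, and include regulators of chromatin and of microRNA availability. The files name lincRNA probes in 3 classes and 15 housekeeping genes, and give every other probe only as a manufacturer's number. Cardiomyocyte markers and miR-150 target genes therefore could not be looked up, and the tissue label was not checked.

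The 6 arrays did not share a scan. Scan 1 held DTG ISO 1 to 3 and, of the other groups, DTG vehicle 3 alone, scan 2 held TG ISO 1 and 2, DTG vehicle 1 and 2 and TG vehicle 1 and 2, and TG ISO 3 and TG vehicle 3 were scanned apart, as scan 3. Within the ISO arrays, group and scan cannot be told apart. Scan here stands for any step that the arrays of a scan shared, and such steps were not told apart. The 75th percentile of signal was 398 to 534 intensity units on DTG ISO arrays and 241 to 477 on TG ISO arrays, and the share of spots well above background was 68.6% to 79.2% and 58.1% to 66.9%. Pairs of arrays were then compared by the correlation of their deviations from each probe's mean over 12 arrays, across 30680 probes well above background on all of them. The library labelled TG ISO 3 correlated at -0.42 and -0.35 with TG ISO 1 and 2, and at 0.39 and 0.48 with TG vehicle 1 and 2. The library labelled TG vehicle 3 did the reverse, at 0.79 and 0.83 with TG ISO 1 and 2 and -0.48 and -0.37 with TG vehicle 1 and 2. DTG vehicle 3 correlated at 0.38 to 0.71 with the DTG ISO arrays of its scan and at -0.24 and 0.081 with DTG vehicle 1 and 2. These 3 libraries thus resembled another group more than their own, and counts of adjusted calls for DTG ISO against TG ISO are given with and without them. Whether the labels of TG ISO 3 and TG vehicle 3 were exchanged was not tested, and both were kept as labelled.

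Many probes differed between DTG ISO and TG ISO by a nominal test, and whether any passed adjustment depended on the fit. Of 45153 probes, limma over all 12 arrays called 0 (0%) at an adjusted p under 0.05, with 0.0617 as the lowest value. After Benjamini-Hochberg adjustment the methods' t-test called 759 higher (1.68%) and 280 lower (0.62%). At the unadjusted threshold, a limma p under 0.05, 12073 probes (26.7%) differed, and DTG ISO was the higher group for 7535 (16.7%) and the lower for 4538 (10.1%). The 3 arrays of each group did not overlap at 10650 probes that were higher (23.7%) and 6346 that were lower (14.1%). With a difference of at least 2-fold and an unadjusted p under 0.05, 4414 probes were higher (9.78%) and 1996 lower (4.42%). The median log2 difference over all probes was 0.12. In whole LV tissue, fewer cells of a type and less RNA per cell cannot be told apart for any probe described.

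The 5 lowest p-values belonged to probes that were well above background on no TG ISO array. The lowest adjusted p was shared by 23 probes, 19 of them higher in DTG ISO, and 2 of the 23 were well above background on all 6 ISO arrays. ASMM10P027918 averaged -2.65 on DTG ISO arrays and was not well above background on any TG ISO array, and it was at least 3.42-fold higher in DTG ISO (adjusted p = 0.0617). Probe humanlincRNA0229-, the lincRNA probe among the 5 lowest p-values, averaged -3.53 on DTG ISO arrays and was at least 1.86-fold higher by the same bound (adjusted p = 0.0617). The bound sets the DTG ISO mean against the faintest signal that counted as well above background on each TG ISO array. Probe humanlincRNA0229- was well above background on the 3 DTG ISO arrays and on no other array, so it passed the filter only through the group where it was high and its p is given as a description. ASMM10P027918 was well above background on 4 arrays, 3 of them DTG ISO. It too needed that group to pass the filter, and its p is likewise a description. These 2 probes were picked out with their values known.

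The count of adjusted calls depended on 3 libraries and on how the arrays were scaled and weighted, and the count at the unadjusted threshold fell with scan as a block. Without TG ISO 3, limma called 1824 probes after adjustment, 885 higher (1.96%) and 939 lower (2.08%) in DTG ISO. Without TG vehicle 3, which enters only through the spread, 2027 were higher (4.49%) and 837 lower (1.85%), and without DTG vehicle 3 2303 were higher (5.1%) and 666 lower (1.47%). With TG ISO 3 and TG vehicle 3 both left out, 13796 probes were called, 7674 higher (17%) and 6122 lower (13.6%), and TG ISO then had 2 arrays. A fit on the 6 ISO arrays alone called 4055, 3247 higher (7.19%) and 808 lower (1.79%). With scan as a block, where DTG vehicle is the group that links scan 1 to scan 2, the fit called 1 probe (0.00221%), and 715 probes (1.58%) differed at the unadjusted threshold. That link is the array DTG vehicle 3 alone, so every value under the scan block carries the deviation of this array. How much of the fall comes from lost precision was not tested. Scaling to the housekeeping mean gave 545 adjusted calls, and array weights gave 26794. The median SD between arrays of a probe was 0.22 in DTG ISO, 0.36 in TG ISO and 0.19 for TG ISO 1 and 2 alone. On TG ISO 3, 56.7% of all probes lay nearer to the DTG ISO mean than to the mean of TG ISO 1 and 2, and the share was 24.1% of the probes that were higher and 49% of those that were lower in DTG ISO. Both sets were chosen with TG ISO 3 in the fit, so shares below that of all probes follow in part from the choice.

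The direction of the difference followed how bright a probe was. Probes were divided into 4 quartiles by their mean signal over all 12 arrays, with bounds at -3.40, -1.49 and 0.93. In the dimmest quartile the median log2 difference was 0.43, in the next 0.15 and 0.038, and in the brightest -0.024. Among the dimmest probes 27.5% were higher and 5.16% lower in DTG ISO at an unadjusted p under 0.05, against 16.7% and 10.1% of all probes. The shares were 18.6% and 7.08% in the second quartile and 12.8% and 11.3% in the third. Among the brightest the balance lay the other way, with 7.88% higher and 16.7% lower. Median signal of the dimmest quartile was -4.19, -4.15 and -4.05 on DTG ISO 1 to 3 and -4.47, -4.36 and -4.68 on TG ISO 1 to 3, so the groups did not overlap and TG ISO 3 was lowest. For the brightest quartile it was 2.95, 2.95 and 2.82 on DTG ISO arrays and 2.97, 2.95 and 3.02 on TG ISO arrays, and the groups overlapped.

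**Figure D1:**
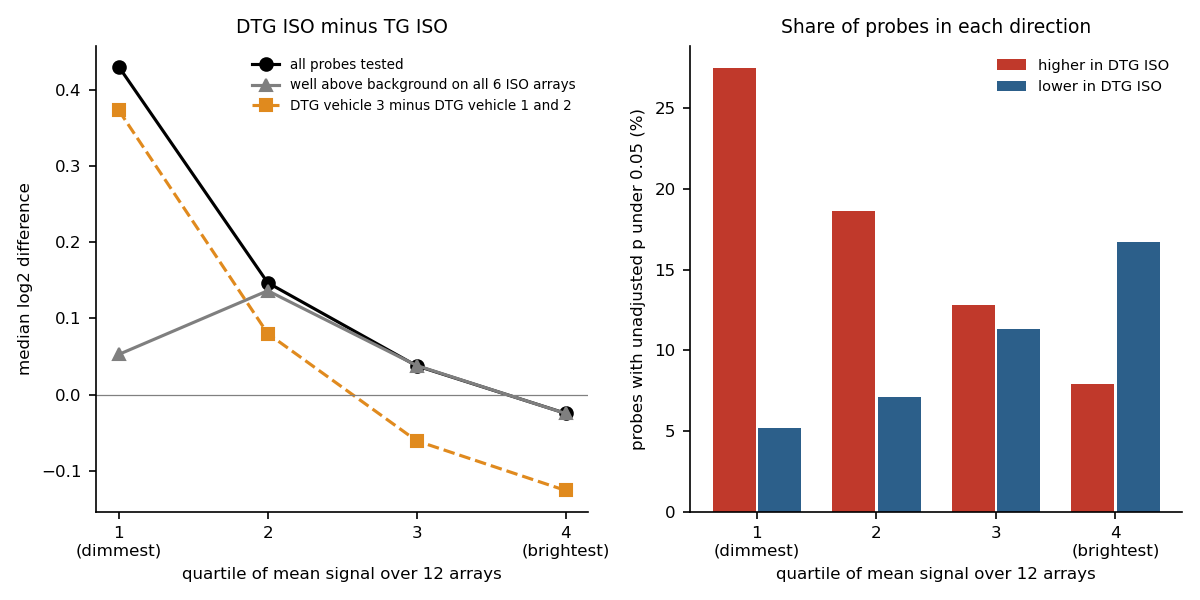
Left, median log2 difference (vertical axis) in each quartile of mean signal (horizontal axis) for all probes tested, for those well above background on all 6 ISO arrays, and for DTG vehicle 3 minus DTG vehicle 1 and 2. Right, percent of probes higher (red) or lower (blue) in DTG ISO at an unadjusted p under 0.05. The median over all probes drops from 0.43 in the dimmest quartile to -0.024 in the brightest, a slope that turned with normexp background correction, where the dimmest quartile stood at -0.16.

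The dimmest quartile depended on how faint signal was handled. Its share of probes well above background was 68.5, 84.2 and 96.7% on DTG ISO arrays and 59.4, 58.5 and 17% on TG ISO arrays, and 11% of its probes were well above background on all 6. Over those 1242 probes the median log2 difference was 0.053, with 9.74% higher and 7.49% lower, beside 12.6% and 11.7% of all probes well above background on the 6 arrays. With normexp background correction, which lifts faint signal, the median of the dimmest quartile was -0.16 and that of the brightest 0.029, and 36.2% of the probes with an unadjusted p under 0.05 were higher in DTG ISO, against 62.4% without it. Scaling to the housekeeping probes gave 78.8% higher, and the filter on all 12 arrays gave 49.9%. In the brightest quartile, where 11288 of 11289 probes were well above background on all 6 ISO arrays, the median was -0.024 with TG ISO 3 and 0.046 without it.

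LincRNA probes stood higher in DTG ISO than in TG ISO. The median log2 difference was 0.68 over 381 humanlincRNA probes, 0.67 over 242 mouselincRNA probes and 0.43 over 48 MM9LINCRNAEXON probes, but 0.0087, 0.00049 and -0.076 with normexp background correction. At an unadjusted p under 0.05, 133 humanlincRNA probes (34.9%) were higher and 7 (1.84%) lower in DTG ISO. The counts were 90 (37.2%) and 6 (2.48%) for mouselincRNA and 16 (33.3%) and 2 (4.17%) for MM9LINCRNAEXON, beside 16.7% and 10.1% of all probes. The lincRNA shares that were higher were thus above the background and those that were lower far under it. No lincRNA probe passed adjustment with limma over the 12 arrays, and the methods' t-test called 20 humanlincRNA, 6 mouselincRNA and 2 MM9LINCRNAEXON probes after adjustment, all higher in DTG ISO, beside 1.68% of all probes.

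Of the classes with numbers for names, ASMM10P made up most of the 45155 probes tested, so its shares could hardly depart from the background. ASMM10UP lay above the background among higher probes. For ASMM10P, 44024 probes, the median was 0.11, with 16.3% higher and 10.2% lower. For ASMM10UP, 444 probes, it was 0.14, with 23% and 7.88%. Both medians were below 0 with normexp background correction, at -0.074 and -0.11, when the median of all probes was -0.073. Of 15 negative control probes, MM9NEGATIVE017 passed the filter, on 3 arrays of scan 1. It read -4.84, -4.90 and -4.49 on DTG ISO 1 to 3 and -5.43, -5.42 and -5.36 on TG ISO 1 to 3, and no fold is given because no TG ISO array was well above background.

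Median signal of the humanlincRNA probes was -3.29, -3.16 and -3.15 on DTG ISO 1 to 3 and -4.14, -3.88 and -3.80 on TG ISO 1 to 3. It was -3.78, -3.77 and -3.22 on DTG vehicle 1 to 3 and -3.67, -3.88 and -4.27 on TG vehicle 1 to 3. The 4 arrays of scan 1 were the 4 highest of the 12, DTG vehicle 3 among them, and did not overlap with the other 8. For mouselincRNA the medians were -3.24, -3.24 and -3.16 on DTG ISO arrays, -4.10, -3.82 and -3.82 on TG ISO arrays, -3.69, -3.88 and -3.07 on DTG vehicle arrays and -3.68, -3.77 and -4.21 on TG vehicle arrays. MM9LINCRNAEXON medians were -2.77, -2.81 and -2.89 on DTG ISO arrays and -3.32, -2.99 and -3.42 on TG ISO arrays, -2.62 on DTG vehicle 3 and at or below -3.02 on the other 5 vehicle arrays. The arrays of scan 1 were again the 4 highest in both classes. For ASMM10P and ASMM10UP the DTG ISO and TG ISO arrays overlapped, with medians of -1.39, -1.39 and -1.35 against -1.42, -1.39 and -1.48 for ASMM10P.

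**Figure D2:**
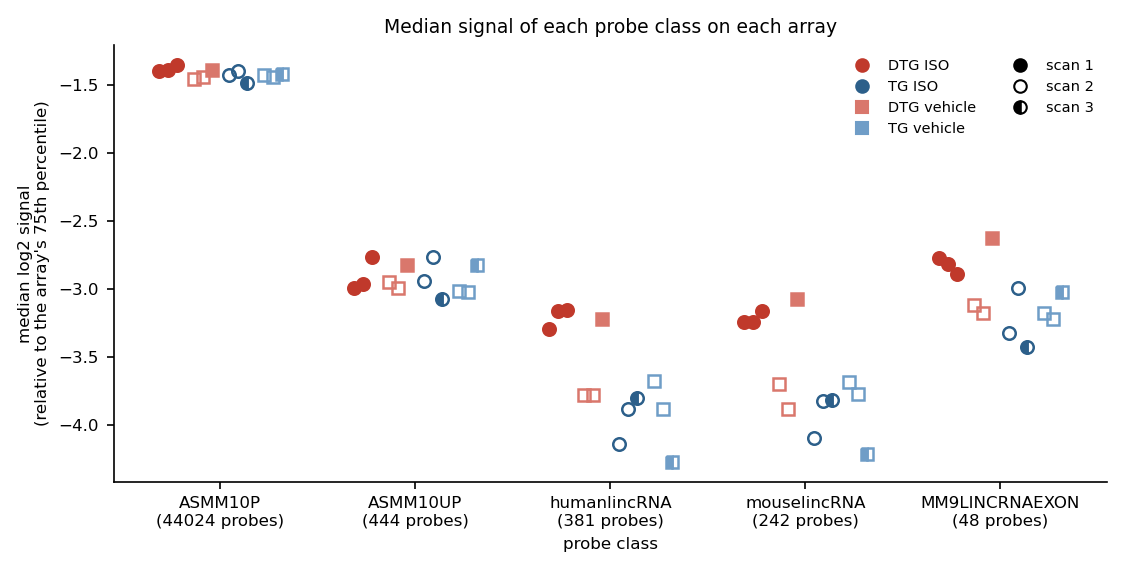
Median log2 signal relative to the array's 75th percentile (vertical axis) of the tested probes of each class (horizontal axis) on each of the 12 arrays, with color and shape for the group and fill for the scan. In the 3 lincRNA classes the 3 DTG ISO arrays and DTG vehicle 3, all of scan 1, lie above the other 8 arrays, although the class differences between DTG ISO and TG ISO were near or below 0 with normexp background correction.

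The same leaning was seen among adjusted calls with TG ISO 3 and TG vehicle 3 left out. That fit kept DTG vehicle 3, and its DTG ISO and TG ISO arrays still shared no scan, so it cannot separate group from scan. Without TG ISO 3 and TG vehicle 3, 17% of all probes were called higher and 13.6% lower in DTG ISO. Of humanlincRNA probes 108 (28.4%) were called higher and 9 (2.37%) lower, of mouselincRNA probes 79 (32.6%) and 5 (2.07%), and of MM9LINCRNAEXON probes 13 (27.1%) and 4 (8.33%). Under the scan block, the 3 medians were 0.032, 0.10 and 0.079 beside 0.048 over all probes, and no lincRNA probe was called. DTG vehicle 3 exceeded DTG vehicle 1 and 2, mice of the same genotype and treatment on another scan, by a median of 0.60, 0.51 and 0.55 in these classes and 0.022 over all probes.

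LincRNA probes were dim, and the filter shaped their class values. Of 1104 humanlincRNA probes on the array 34.5% passed it, of 649 mouselincRNA probes 37.3% and of 83 MM9LINCRNAEXON probes 57.8%, against 75.7% of ASMM10P. Over every probe of a class with no filter, the medians were -0.12, -0.068 and 0.18, and the median over all 60930 probes was 0.0083. Probes that were well above background on the 3 DTG ISO arrays and nowhere else passed through that group alone, and there were 2 humanlincRNA, 1 mouselincRNA and 0 MM9LINCRNAEXON probes of this kind. Probes well above background on these 3 arrays and on fewer than 3 others also needed DTG ISO to pass, and were not counted. Restricted to probes well above background on all 12 arrays, the medians were 0.47 (n = 126), 0.46 (n = 89) and 0.28 (n = 23), beside 0.043 over all 31003 such probes. Of them 19.8%, 27% and 30.4% were higher at an unadjusted p under 0.05, against 12.2% of all, and 4.76%, 4.49% and 8.7% were lower, against 12.3%.

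Within each signal quartile the humanlincRNA and mouselincRNA medians exceeded those of ASMM10P. In the dimmest quartile they were 0.90 (n = 214) and 0.93 (n = 138), against 0.41 for ASMM10P. In the second they were 0.52 and 0.33 against 0.14, and in the third 0.42 and 0.49 against 0.036. In the brightest, 22 humanlincRNA and 12 mouselincRNA probes had medians of 0.26 and 0.47, against -0.026 for ASMM10P. Few lincRNA probes were bright, and 4 of the 22 brightest humanlincRNA probes were lower and 3 higher at an unadjusted p under 0.05.

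Detection was read without fold changes. Over all classes, 1729 of 45155 tested probes were well above background on the 3 DTG ISO arrays and on no TG ISO array. The opposite was seen at 5 probes, ASMM10P010207, ASMM10P045797, ASMM10P048100, ASMM10P052956 and ASMM10P054627. For humanlincRNA the counts were 54 and 0 of 381 probes, for mouselincRNA 38 and 0 of 242, and for MM9LINCRNAEXON 2 and 0 of 48. The share in the first direction was thus above that of all probes for humanlincRNA and mouselincRNA, and near it for MM9LINCRNAEXON. The share of tested humanlincRNA probes well above background was 82.4, 94.8 and 98.7% on DTG ISO 1 to 3, 64.3, 65.9 and 49.9% on TG ISO 1 to 3 and 93.2% on DTG vehicle 3. For ASMM10P it was 92.3, 96.1 and 99.2% on DTG ISO arrays and 90.2, 89.8 and 78.6% on TG ISO arrays. DTG ISO arrays therefore registered more probes of every lincRNA class, and TG ISO 3 fewest among the 6. Background flags move with the brightness of an array, and their part in the class values was not tested.

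Most lincRNA names occur with a plus and with a minus sign, which the files do not explain. Of 960 names, 876 had both. Among the 120 names with both probes tested, both were higher in DTG ISO in 75, both lower in 7 and the signs opposed in 38. The median gap between the log2 differences of a pair was 0.74.

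Among lincRNA probes well above background on all 6 ISO arrays, whose groups did not overlap and whose unadjusted p was under 0.05, 39 humanlincRNA, 25 mouselincRNA and 6 MM9LINCRNAEXON probes were higher in DTG ISO, and 6, 4 and 2 were lower. Of all probes 8.97% met this rule as higher and 7.83% as lower. The 3 with the largest difference in each direction of each class are described, with their positions in the genome and the transcripts behind them not given in the files. Probe humanlincRNA0255+ led the humanlincRNA probes, with -0.84, -0.96 and -0.0043 on DTG ISO 1 to 3 and -4.42, -4.22 and -3.37 on TG ISO 1 to 3. This gave a log2 difference of 3.40 (SE 1.02, adjusted p = 0.0945), or 10.6-fold, and DTG vehicle 3, at -0.69, lay with the DTG ISO arrays. With normexp background correction, which lifts faint signal, its difference was 1.72 (adjusted p = 0.0897). Probe humanlincRNA0459- read 1.59, 0.41 and 1.25 on DTG ISO 1 to 3 and -2.29, -2.15 and -2.15 on TG ISO 1 to 3, a log2 difference of 3.29 (SE 0.78, adjusted p = 0.0776). Probe humanlincRNA0931+ read 0.78, -0.15 and 0.74 on DTG ISO 1 to 3 and -1.66, -2.43 and -3.01 on TG ISO 1 to 3, a log2 difference of 2.82 (SE 0.82, adjusted p = 0.0905). On DTG vehicle 3 they stood at 1.17 and 0.66, within the DTG ISO range, and on DTG vehicle 2 at -2.58 and -2.97. Blocking on scan, which rests on DTG vehicle 3 here and for every named probe, gave differences of 0.80, 0.44 and -0.061. With it humanlincRNA0931+ turned in direction, and normexp gave 2.62 for humanlincRNA0459- and 2.10 for humanlincRNA0931+.

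The mouselincRNA and MM9LINCRNAEXON probes repeated this arrangement. Probe mouselincRNA0725- read 0.47, -0.099 and 0.72 on DTG ISO 1 to 3 and -1.11, -2.12 and -2.66 on TG ISO 1 to 3, a log2 difference of 2.33 (SE 0.81, adjusted p = 0.117), and 0.70 on DTG vehicle 3. Probe mouselincRNA1377+ read 0.93, 1.48 and 0.67 on DTG ISO 1 to 3 and -1.30, -0.75 and -0.38 on TG ISO 1 to 3, a log2 difference of 1.84 (SE 0.49, adjusted p = 0.0825). That the groups did not overlap for either was required by the rule. Probe mouselincRNA1188- had the smallest gap, with -0.31 on DTG ISO 3 and -1.0 on TG ISO 3, and a log2 difference of 1.45 (SE 0.57, adjusted p = 0.145). MM9LINCRNAEXON11125+ read 2.99, 2.13 and 2.65 on DTG ISO 1 to 3 and 0.79, -0.19 and -0.99 on TG ISO 1 to 3, a log2 difference of 2.72 (SE 0.90, adjusted p = 0.108), with 2.97 on DTG vehicle 3. MM9LINCRNAEXON10343+ and MM9LINCRNAEXON11712- differed by 1.76 (SE 0.48, adjusted p = 0.0848) and 1.37 (SE 0.28, adjusted p = 0.0718), and with normexp MM9LINCRNAEXON11712- differed by 0.49. Under the scan block mouselincRNA0725- and MM9LINCRNAEXON11125+ turned in direction, to -0.29 and -0.53, while mouselincRNA1377+ stayed at 0.89 with an adjusted p of 0.998.

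**Figure D3:**
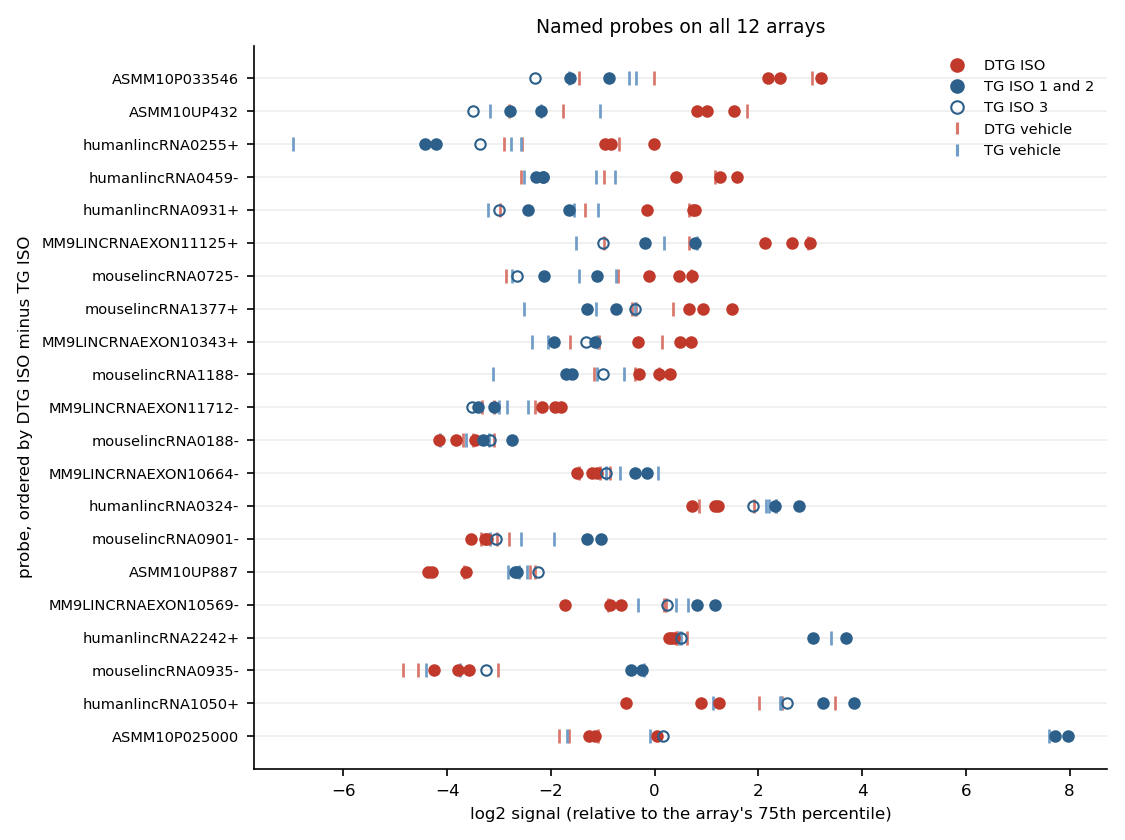
Log2 signal relative to the array's 75th percentile (horizontal axis) of the 21 named probes (vertical axis), with a red dot for each DTG ISO array, a blue dot for TG ISO 1 and 2, an open circle for TG ISO 3 and ticks for the vehicle arrays. The groups of 3 do not overlap for any of the probes, which the rule required, and for several probes lower in DTG ISO, among them humanlincRNA2242+ and ASMM10P025000, TG ISO 3 lies beside the DTG ISO arrays.

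LincRNA probes lower in DTG ISO were fewer, and several turned on which TG ISO arrays were high. Probe humanlincRNA1050+ read 0.89, 1.25 and -0.55 on DTG ISO 1 to 3 and 3.24, 3.84 and 2.56 on TG ISO 1 to 3, a log2 difference of -2.68 (SE 0.57, adjusted p = 0.0722). DTG vehicle 3, at 2.0, lay between the groups, which the rule required not to overlap for every named probe. Probe humanlincRNA0324- read 1.17, 1.22 and 0.73 on DTG ISO 1 to 3 and 2.32, 2.77 and 1.90 on TG ISO 1 to 3, a log2 difference of -1.29 (SE 0.36, adjusted p = 0.0853). DTG vehicle 3 read 0.85 for it, with the DTG ISO arrays, while DTG vehicle 1 and 2 read 1.91 and 2.35. With scan as a block its difference was -0.093 (adjusted p = 0.998). Probe humanlincRNA2242+ read 0.32, 0.29 and 0.38 on DTG ISO 1 to 3 and 3.05, 3.69 and 0.51 on TG ISO 1 to 3, a log2 difference of -2.09 (SE 0.85, adjusted p = 0.156). On TG ISO 1 and 2 and on TG vehicle 3, at 3.41, it was high, and on the other 9 arrays, TG ISO 3 included, it lay between 0.29 and 0.62.

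Probe mouselincRNA0935- was arranged likewise, with -3.79, -3.58 and -4.26 on DTG ISO 1 to 3 and -0.46, -0.25 and -3.25 on TG ISO 1 to 3, a log2 difference of -2.56 (SE 1.06, adjusted p = 0.162), and -0.21 on TG vehicle 3. Probe mouselincRNA0901- read -3.24, -3.28 and -3.54 on DTG ISO 1 to 3 and -1.31, -1.04 and -3.07 on TG ISO 1 to 3, a log2 difference of -1.55 (SE 0.48, adjusted p = 0.0998), and -1.93 on TG vehicle 3. For both, TG ISO 3 lay nearer to the DTG ISO arrays than to TG ISO 1 and 2. Probe mouselincRNA0188- differed least of the 3, by -0.74 (SE 0.30, adjusted p = 0.151). MM9LINCRNAEXON10569- read -0.87, -0.65 and -1.73 on DTG ISO 1 to 3 and 0.81, 1.17 and 0.24 on TG ISO 1 to 3, a log2 difference of -1.82 (SE 0.41, adjusted p = 0.0752), and here TG ISO 3 stayed with the TG ISO arrays. MM9LINCRNAEXON10664- differed by -0.78 (SE 0.30, adjusted p = 0.143), with DTG ISO arrays from -1.49 to -1.11 and TG ISO arrays from -0.94 to -0.15. Without TG ISO 3 and TG vehicle 3 the differences of humanlincRNA2242+, mouselincRNA0935- and mouselincRNA0901- were -3.04, -3.52 and -2.18, with adjusted p of 9.04e-05, 0.00172 and 0.000644. With normexp the difference of mouselincRNA0935- was -1.67. Under the scan block humanlincRNA1050+ and humanlincRNA2242+ differed by -1.77 and -1.97. There mouselincRNA0935-, mouselincRNA0901- and mouselincRNA0188- differed by -4.09, -1.28 and -1.27. MM9LINCRNAEXON10569- and MM9LINCRNAEXON10664- differed by -0.75 and -0.26, and none of these was called (adjusted p = 0.998 each).

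The classes named by number held the widest differences. ASMM10P033546 read 3.20, 2.18 and 2.42 on DTG ISO 1 to 3 and -1.63, -0.89 and -2.30 on TG ISO 1 to 3, a log2 difference of 4.21 (SE 0.91, adjusted p = 0.0725), or 18.5-fold. It also read 3.03 on DTG vehicle 3, against -0.017 and -1.46 on DTG vehicle 1 and 2, so the 4 arrays of scan 1 stood together. Its difference under the scan block was 0.35 (adjusted p = 0.998). ASMM10UP432 read 1.54, 0.81 and 1.01 on DTG ISO 1 to 3 and -2.78, -2.19 and -3.50 on TG ISO 1 to 3, a log2 difference of 3.95 (SE 0.97, adjusted p = 0.0788), and 1.77 on DTG vehicle 3, and with scan as a block its direction turned, to -0.29. With normexp the differences of ASMM10P033546 and ASMM10UP432 were 3.59 and 2.91.

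ASMM10P025000 read -1.15, 0.054 and -1.26 on DTG ISO 1 to 3 and 7.97, 7.73 and 0.17 on TG ISO 1 to 3, a log2 difference of -6.07 (SE 2.36, adjusted p = 0.143), or 67.4-fold lower. It was far above the other arrays on TG ISO 1 and 2 and on TG vehicle 3, at 7.60, and it read -0.084 and -1.69 on TG vehicle 1 and 2, near TG ISO 3. Without TG ISO 3 and TG vehicle 3 the difference was -8.64 (adjusted p = 6.88e-05), with scan as a block -5.76 (adjusted p = 0.998). ASMM10UP887 read -4.38, -4.29 and -3.65 on DTG ISO 1 to 3 and -2.70, -2.65 and -2.26 on TG ISO 1 to 3, a log2 difference of -1.57 (SE 0.35, adjusted p = 0.0744), and -3.67 on DTG vehicle 3 against -2.40 and -2.31 on DTG vehicle 1 and 2. The 4 arrays of scan 1 were the lowest of the 12, and the difference was -0.81 with normexp and -0.14 with scan as a block (adjusted p = 0.998).

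The 15 housekeeping genes were the genes that the files name. None passed adjustment with limma over the 12 arrays (lowest adjusted p = 0.096), and log2 differences ran from -1.10 to 1.0. At an unadjusted p under 0.05, 3 were higher (20%), 6 were lower (40%) and 6 were neither, beside 16.7% and 10.1% of all probes. The groups did not overlap for 8 genes, 3 higher (20%) and 5 lower (33.3%), beside 23.7% and 14.1% of all probes. For these 8 the two-sided exact permutation p was 0.1, the smallest that 3 arrays against 3 allow. Actb, β-actin, read 5.27, 5.37 and 4.63 on DTG ISO 1 to 3 and 5.88, 6.05 and 5.70 on TG ISO 1 to 3, a log2 difference of -0.79 (SE 0.24, adjusted p = 0.0994). Tuba1b, an α-tubulin, read 7.26, 7.44 and 7.21 on DTG ISO 1 to 3 and 7.96, 7.95 and 7.60 on TG ISO 1 to 3, a log2 difference of -0.53 (SE 0.20, adjusted p = 0.14). Both genes were lower on every DTG ISO array than on every TG ISO array. B2m, the light chain of MHC class I, read 6.57, 6.17 and 6.42 on DTG ISO 1 to 3 and 7.41, 7.52 and 6.78 on TG ISO 1 to 3, a log2 difference of -0.85 (SE 0.26, adjusted p = 0.096). Ppia, a peptidyl-prolyl isomerase that helps proteins fold, read 6.92, 6.87 and 6.82 on DTG ISO 1 to 3 and 7.77, 7.80 and 7.05 on TG ISO 1 to 3, a log2 difference of -0.67 (SE 0.26, adjusted p = 0.143). TG ISO 3 lay between TG ISO 1 and 2 and the DTG ISO arrays for both.

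Rpl13a, a protein of the large ribosomal subunit whose gene lies close to that of miR-150 on chromosome 7, read 3.39, 3.46 and 3.34 on DTG ISO 1 to 3 and 4.49, 4.53 and 3.70 on TG ISO 1 to 3, a log2 difference of -0.84 (SE 0.30, adjusted p = 0.123). The groups did not overlap, though TG ISO 3 was nearer to DTG ISO than to TG ISO 1 and 2, and TG vehicle 3, at 4.43, lay with TG ISO 1 and 2. Gusb, the lysosomal β-glucuronidase, had the widest difference below 0 and overlapping groups, with 2.57, 2.54 and 2.93 on DTG ISO 1 to 3 and 4.04, 4.59 and 2.69 on TG ISO 1 to 3, a log2 difference of -1.10 (SE 0.48, adjusted p = 0.178). Without TG ISO 3 and TG vehicle 3, 6 housekeeping genes (40%) were called lower and 2 (13.3%) higher, beside 13.6% and 17% of all probes. Gusb then differed by -1.64 (adjusted p = 0.00154). Blocking on scan, the differences of Actb, Rpl13a and Gusb were -0.84, -0.62 and -1.08, none of them called.

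At 3 genes the DTG ISO arrays lay above the TG ISO arrays, and none of the 3 passed adjustment. Tfrc, the transferrin receptor that takes up iron, read 6.58, 6.20 and 6.14 on DTG ISO 1 to 3 and 4.84, 5.30 and 5.78 on TG ISO 1 to 3, a log2 difference of 1.0 (SE 0.43, adjusted p = 0.171). Gk, glycerol kinase, read -2.17, -2.30 and -2.31 on DTG ISO 1 to 3 and -3.16, -3.13 and -2.40 on TG ISO 1 to 3, a log2 difference of 0.64 (SE 0.27, adjusted p = 0.167), and 0.20 with normexp background correction. Neither gene's groups overlapped, and TG ISO 3 was again the TG ISO array closest to DTG ISO. Ldhal6b, a lactate dehydrogenase A-like gene, read -3.68, -3.68 and -3.89 on DTG ISO 1 to 3 and -4.16, -4.39 and -5.06 on TG ISO 1 to 3, a log2 difference of 0.79 (SE 0.31, adjusted p = 0.149), was not well above background on TG ISO 3, and differed by -0.054 with normexp background correction.

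For 6 genes the groups overlapped and the differences were smaller than their SE. Gapdh, of glycolysis, differed by -0.035 (SE 0.25), Hprt, of purine salvage, by 0.027 (SE 0.16), and Tbp, the TATA-binding protein, by 0.000369 (SE 0.21). Nono, an RNA-binding protein of paraspeckles, differed by -0.054 (SE 0.21), G6pd2, a glucose-6-phosphate dehydrogenase, by -0.16 (SE 0.21), and Hsp90ab1, a chaperone, by 0.22 (SE 0.26). The direction turned for Gapdh and Nono when arrays were scaled to the housekeeping mean, to 0.12 and 0.10, and for Tbp when scaled to probes bright on all 12 arrays, to -0.018.

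**Figure D4:**
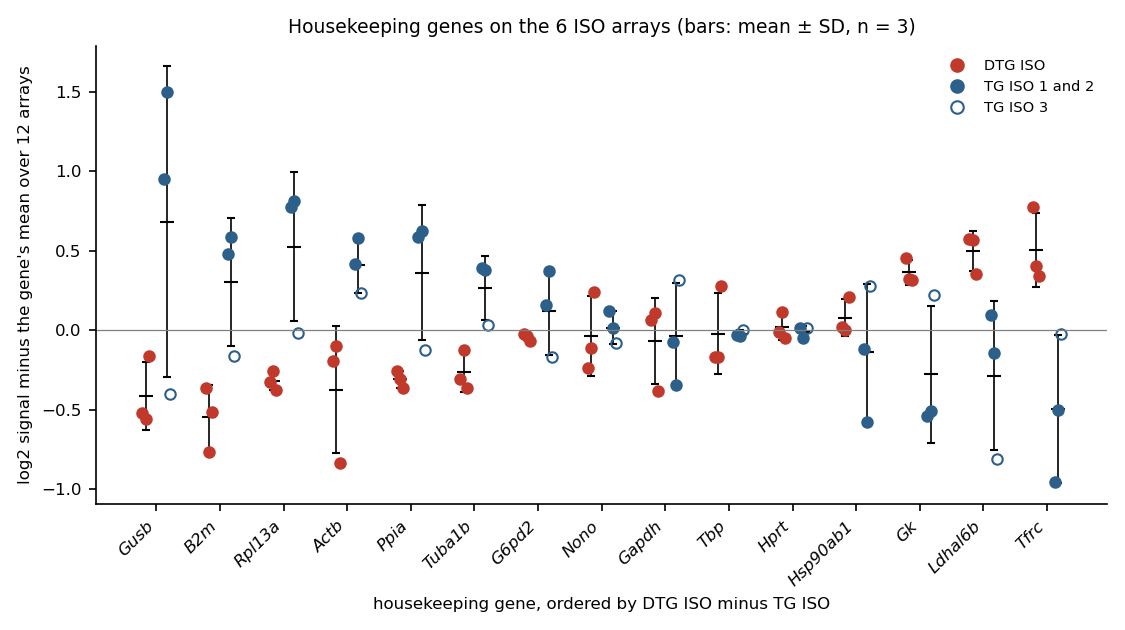
Log2 signal of each housekeeping gene minus its mean over the 12 arrays (vertical axis) on the 6 ISO arrays for each gene (horizontal axis), with red dots for DTG ISO, blue dots for TG ISO 1 and 2, an open circle for TG ISO 3 and bars for the mean ± SD (n = 3 arrays). Actb, B2m, Rpl13a, Ppia and Tuba1b are lower and Tfrc, Gk and Ldhal6b higher on the DTG ISO arrays than on every TG ISO array, Ldhal6b turning to -0.054 with normexp background correction.

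The same probes were then read in the vehicle arrays, which the comparison under ISO did not use except for the spread. DTG vehicle against TG vehicle gave no adjusted call (lowest adjusted p = 0.0513), with 4.11% of probes higher and 1.12% lower at an unadjusted p under 0.05. Probes higher in DTG ISO had a median difference of 0.41 between DTG vehicle and TG vehicle, and 88.1% had the same sign. Probes lower in DTG ISO had a median of -0.31, and 88.7% had the same sign, against 73.5% of all probes. Restricted to DTG vehicle 1 and 2 and TG vehicle 1 and 2, which shared scan 2, the medians were -0.023 and 0.024, and 46.9% and 44.1% had the same sign. That restriction left out DTG vehicle 3 and also TG vehicle 3, which correlated at 0.79 and 0.83 with TG ISO 1 and 2. The vehicle difference at these probes was near 0 on scan 2, where both genotypes were present. What the scan and each array left out add to the full vehicle difference was not tested, nor was its part in the ISO difference.

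DTG vehicle 3 against DTG vehicle 1 and 2 compares scan 1 with scan 2 within 1 genotype and treatment. Probes higher in DTG ISO were higher on DTG vehicle 3 by a median of 0.67, with 90.1% of the same sign, and probes lower in DTG ISO were lower by a median log2 difference of -0.32, with 82.1%, against 66.7% of all probes. Across 44975 probes, which are not independent replicates, the ISO difference correlated with the difference between DTG vehicle 3 and DTG vehicle 1 and 2 at r = 0.52, with the full difference between DTG vehicle and TG vehicle at r = 0.63, and with the vehicle difference on scan 2 at r = -0.072. The points share array brightness, and the full vehicle difference also contains TG vehicle 3, which resembled TG ISO 1 and 2. DTG vehicle 3 shared its scan with the DTG ISO arrays. What belongs to scan 1 and what to that single sample cannot be told apart.

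Whether the genotype difference itself depended on ISO was tested by the interaction, the difference under ISO minus that under vehicle. No probe was called (lowest adjusted p = 0.928), and 4.36% had an unadjusted p under 0.05. Of the probes higher in DTG ISO 14.3% and of those lower 11.5% were among them. Both sets were chosen by the ISO difference, which is itself part of the interaction. Shares above that of all probes follow from this choice and say nothing on ISO. The differences under ISO were therefore not shown to be particular to ISO.

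Of 7 measures from the manufacturer's control probes, 2 set scan 1 apart from the other arrays. Gapdh control probes near the 3′ and 5′ ends of the transcript gave a 3′ minus 5′ log2 difference of 0.46 ± 0.11 (SD, n = 3) in DTG ISO and 1.16 ± 0.14 (SD, n = 3) in TG ISO. The 2 groups did not overlap (two-sided exact permutation p = 0.1, the smallest possible, 0.175 after Benjamini-Hochberg adjustment over 7 control measures). The 4 arrays of scan 1, DTG vehicle 3 included, lay between 0.35 and 0.58, and the other 8 between 0.87 and 1.31. For the mouse Pgk1 probes the 3′ minus 5′ difference was 7.54 ± 0.44 (SD, n = 3) in DTG ISO and 8.14 ± 0.13 (SD, n = 3) in TG ISO, with scan 1 and the other arrays overlapping. A rat Pgk1 3′ probe, at -2.41 to -2.25 on scan 1, was lower on all 8 other arrays, at -4.34 to -3.05. The 4 mouse Gapdh and Pgk1 probes taken singly overlapped between scan 1 and the other arrays. The part of these measures in the differences between DTG ISO and TG ISO was not tested.

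**Figure D5:**
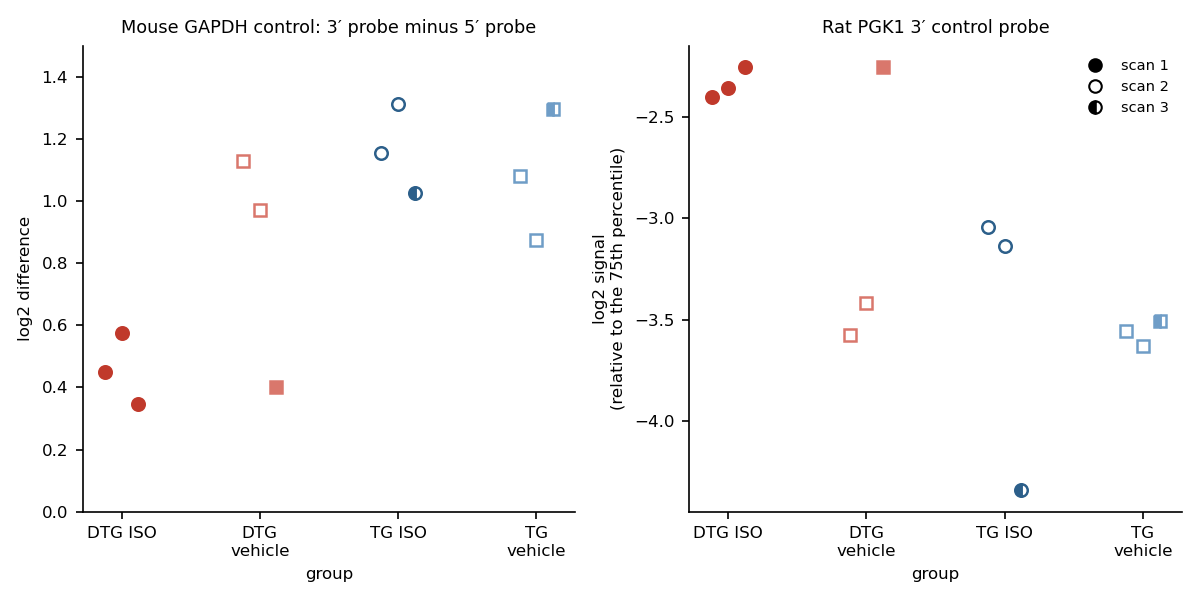
Left and right, the 3′ minus 5′ log2 difference of the manufacturer's Gapdh probes and the log2 signal of the rat Pgk1 3′ probe (vertical axes) on each of the 12 arrays, by group and scan. The 4 arrays of scan 1 lie between 0.35 and 0.58 for Gapdh and between -2.41 and -2.25 for rat Pgk1, apart from the other 8 arrays in both.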

How the data were processed

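RNA from LVs was depleted of ribosomal RNA, labelled with Cy3 from random primers and hybridized to 12 Agilent arrays, 3 in each of 4 groups. The deposited files of the authors hold spot intensities from Agilent Feature Extraction 11.0.1.1, background-subtracted by that software, with flags for spots well above background, saturated or outliers. A table of log2 values by the authors, whose normalization is not given in the sources used here, covered 60834 of the 60930 probes and served as an alternative.

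Processed intensity was converted to log2 after 1166 outlier spots were left out, spots of a probe were averaged, and each array's 75th percentile over 61500 non-control spots was subtracted. Tested were probes with signal well above background on 3 or more of 12 arrays (45155, of which 45153 had values for both ISO groups). Group means were fitted with limma 3.58.1 in R 4.3.3 (data.table version 1.17.8, figures with matplotlib 3.10.9) over all 12 arrays with 8 residual degrees of freedom, an empirical Bayes prior, and Benjamini-Hochberg adjustment over all tested probes with a threshold of 0.05. Group labels came from the sample titles. Scans were taken from the file headers. Slides were assumed: scans 2 and 3, whose array positions do not repeat, were taken as 1 slide and scan 1 as another. The slide block therefore sets scan 1 apart from all other arrays. The number of arrays limits the precision.

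Named were all 15 housekeeping genes and, among probes well above background on all 6 ISO arrays with groups that do not overlap and an unadjusted p under 0.05, the 3 largest differences in each direction of each lincRNA class and the largest of each numbered class. The members and lists were chosen with earlier results of these data known. Gene lists and cell type markers were not analysed here, since no table used here names the genes of numbered probes. A fold against a group not well above background is a bound, the bright group's mean over the faintest signal that was well above background on each array of the dim group, or the probe's own signal where that was higher.

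Alternatives were other scalings, normexp (offset 50) on median spot and background intensities, since mean spot signal was not among the columns, the authors' table, other filters, the ISO arrays alone, each array left out, TG ISO 3 and TG vehicle 3 left out together, blocks for replicate number, scan or slide, sex as labelled, array weights estimated probe by probe, a trended robust prior and the methods' t-test. The joint leave-out and the scan block for medians, and the array weights, were added after the data were seen. The fit was tested on simulated data.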

Additional observations from a re-analysis of the deposited data

Results flagged for a closer look

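At 2 of the named probes and 1 housekeeping gene, ISO and vehicle arrays did not overlap in TG mice nor in DTG mice, and the direction of ISO minus vehicle was opposite. For humanlincRNA1050+ it was 1.22 in TG mice and -2.12 in DTG mice, an interaction of -3.34. For MM9LINCRNAEXON11712- it was -0.58 in TG mice and 0.94 in DTG mice, an interaction of 1.52. For Actb it was 0.53 in TG mice and -0.45 in DTG mice, an interaction of -0.98. The interaction had an adjusted p of 0.928 for each of the 3. Of 44740 probes with a value on every array, 210 (0.469%) showed this arrangement. TG ISO 3 and TG vehicle 3, which resembled the other treatment, are part of these values, and whether their labels were exchanged was not tested.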

How the results depend on the processing

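The medians of humanlincRNA and mouselincRNA were above 0 under every scaling that kept the filter, and below 0 without the filter. With normexp they were near 0, at 0.0087 and 0.00049. The pooled SD of these class medians between ISO arrays of a group was 0.14 and 0.12. Outside the settings that leave out 1 array, 172 overall values were recomputed, of which 90 kept their size and direction. Quantile normalization gave 11 adjusted calls, and medians of 0.045 for all probes, 0.13 for the dimmest quartile, 0.020 for the second quartile, 0.019 for the third quartile, 0.040 for the brightest quartile, 0.039 for ASMM10P, 0.47 for humanlincRNA and 0.50 for mouselincRNA. Scaling to probes bright on all 12 arrays gave medians of 0.020 for the third quartile. Scaling to the housekeeping mean gave 545 adjusted calls, with 78.8% higher, and medians of 0.28 for all probes, 0.59 for the dimmest quartile, 0.30 for the second quartile, 0.19 for the third quartile, 0.13 for the brightest quartile, 0.27 for ASMM10P, 0.30 for ASMM10UP, 0.84 for humanlincRNA and 0.83 for mouselincRNA. Normexp background correction gave 36.2% higher, and medians of -0.073 for all probes, -0.16 for the dimmest quartile, -0.065 for the second quartile, 0.010 for the third quartile, -0.074 for ASMM10P, -0.11 for ASMM10UP, 0.0087 for humanlincRNA, 0.00049 for mouselincRNA and -0.076 for MM9LINCRNAEXON. The authors' table gave 1 adjusted call, and medians of 0.046 for all probes, 0.12 for the dimmest quartile, 0.021 for the second quartile, 0.021 for the third quartile, 0.045 for the brightest quartile, 0.040 for ASMM10P, 0.47 for humanlincRNA and 0.48 for mouselincRNA. Testing with no filter gave medians of 0.0083 for all probes, -0.52 for the dimmest quartile, 0.34 for the second quartile, 0.094 for the third quartile, 0.013 for ASMM10P, -0.19 for ASMM10UP, -0.12 for humanlincRNA, -0.068 for mouselincRNA and 0.18 for MM9LINCRNAEXON. The filter on all 12 arrays gave 49.9% higher, and medians of 0.043 for all probes, 0.096 for the dimmest quartile, 0.041 for ASMM10P, 0.47 for humanlincRNA and 0.46 for mouselincRNA. The filter on all 6 ISO arrays gave 51.9% higher, and medians of 0.048 for all probes, 0.053 for the dimmest quartile, 0.045 for ASMM10P, 0.43 for humanlincRNA and 0.40 for mouselincRNA. The 6 ISO arrays alone gave 4055 adjusted calls. Leaving out TG ISO 3 and TG vehicle 3 gave 13796 adjusted calls, with 19896 probes past the unadjusted threshold, and medians of 0.075 for the third quartile and 0.046 for the brightest quartile. Scan as a block gave 1 adjusted call, with 715 probes past the unadjusted threshold, and medians of 0.048 for all probes, 0.0081 for the dimmest quartile, 0.054 for the second quartile, 0.069 for the third quartile, 0.045 for the brightest quartile, 0.047 for ASMM10P, 0.032 for humanlincRNA, 0.10 for mouselincRNA and 0.079 for MM9LINCRNAEXON. Slide as a block gave 10 adjusted calls, with 899 probes past the unadjusted threshold. Array weights estimated probe by probe gave 26794 adjusted calls, with 28834 probes past the unadjusted threshold. The methods' t-test gave 1039 adjusted calls. The single call under the scan block was ASMM10P015748, for which DTG vehicle 3 read -7.12 while every other array lay between -2.31 and -1.17. The call in the authors' table was humanlincRNA0229-, a probe that passed the filter only through the DTG ISO arrays, where it was high, and the call without DTG ISO 1 was ASMM10P055106. Leaving out 1 array moved adjusted calls from 0 to 2969, probes past the unadjusted threshold from 7345 to 15769, the median of the third quartile from 0.0063 to 0.075 and the median of the brightest quartile from -0.092 to 0.046, with calls above 1 only without DTG vehicle 3, TG vehicle 3 or TG ISO 3.

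Replicate numbers did not pair the samples, since deviations of same-numbered DTG ISO and TG ISO arrays correlated at -0.028, -0.052 and -0.12. With the replicate block the comparison gave 0 adjusted calls and 9751 probes past the unadjusted threshold, 65.1% of them higher in DTG ISO.

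For the 36 named probes and genes, 1040 values were recomputed under 29 settings. Of these 909 kept direction and stayed uncalled, 101 kept direction and were called, and 30 turned. Nono was 0.055 with quantile normalization, 0.10 scaled to the housekeeping mean, 0.0024 with normexp, 0.069 in the authors' table, 0.047 without DTG ISO 1, 0.19 with the scan block and 0.22 with the slide block. Tbp was -0.018 scaled to the median of probes bright on all 12 arrays, -0.15 without DTG ISO 3, -0.0035 without TG ISO 1, -0.0073 without TG ISO 2 and -0.096 with array weights. Gapdh was 0.12 scaled to the housekeeping mean, 0.040 with normexp, 0.12 without DTG ISO 3, 0.14 without TG ISO 3, 0.14 without TG ISO 3 and TG vehicle 3, 0.17 with the scan block, 0.17 with the slide block and 0.12 with array weights. Ldhal6b was -0.054 with normexp. Hprt was -0.020 without DTG ISO 2. Hsp90ab1 was -0.0016 without TG ISO 2. Probe humanlincRNA0931+ was -0.061 with the scan block. Probe mouselincRNA0725- was -0.29 with the scan block and -0.16 with the slide block. MM9LINCRNAEXON11125+ was -0.53 with the scan block and -0.40 with the slide block. ASMM10UP432 was -0.29 with the scan block and -0.11 with the slide block. With 1 array left out at a time, Nono lay between -0.19 and 0.047, Gapdh lay between -0.19 and 0.14, Hprt lay between -0.020 and 0.059, Hsp90ab1 lay between -0.0016 and 0.43 and Tbp lay between -0.15 and 0.076. The cause of these turns was not tested. With 3 arrays a group, simulated log2 shifts of 1, 2 and 3 at 200 of 44740 probes were recovered in 0%, 56.5% and 85%. The simulation drew independent noise for each probe, with no scan effect. It shifted far fewer probes than differed here at the unadjusted threshold. These shares are therefore not the power of the comparison of DTG ISO with TG ISO.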
